A study of Mus musculus with 8 samples.

Results

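The 29 genes described here encode the enzymes of cholesterol and fatty acid synthesis and the proteins that control them, and were taken by name from the 23951 gene symbols of the expression table. They comprise 18 enzymes of the sterol arm, 6 enzymes of the fatty acid arm and 5 genes of the SREBP control system. RNA-seq was made from mouse jejunal crypts, the epithelial pockets of the upper small intestine that hold its dividing cells. Every group carried the BRAF-V600E f/+ allele, which yields a constantly active kinase upstream of ERK. Each also carried Villin-CreER(T2), by which tamoxifen turns on Cre recombinase in intestinal epithelium. The SMAD4KO_BRAF group (3 libraries) was also Smad4 f/f, the CDX2KO_BRAF group (2 libraries) was also Cdx2 f/f, and the BRAF group (3 libraries) had the BRAF-V600E f/+ allele alone. All mice received tamoxifen on 4 consecutive days, and crypts were collected 1 day later after dissociation in 3 mM EDTA and passage through a 70 micron filter. Tamoxifen and BRAF activation were therefore common to all groups, the BRAF group included. Mouse ages are not given in the sources used here, and the labels do not say whether the libraries of a group come from separate mice, so p-values here reflect variation among libraries that could in part be technical. Smad4 encodes the shared partner of the receptor-activated SMADs in TGF-beta and BMP signalling, and Cdx2 encodes a homeobox factor of intestinal identity.

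Cells make cholesterol from acetyl-CoA by way of mevalonate, squalene and lanosterol, and make fatty acids from the same acetyl-CoA by way of malonyl-CoA. SREBP transcription factors are made as precursors in the endoplasmic reticulum membrane. Scap escorts them to the Golgi for cleavage when sterols are low, and Insig proteins hold Scap back when sterols are high. SREBP-2, encoded by Srebf2, is best known for driving sterol synthesis genes, and SREBP-1c, a product of Srebf1, for driving fatty acid synthesis genes. They act at promoters together with the general factors NF-Y and Sp1. The small intestine makes cholesterol of its own, and its enterocytes also take up, esterify and export lipid.

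The promoters of 4 sterol genes that differed in the CDX2KO_BRAF comparison below, and that of Hmgcs1, are shown as examples. RefSeq promoters (GRCm38.p6; 250 bases before to 50 after each gene's start) were matched for 23 of the 29 genes. Both strands were searched for TCACNCCAC (a sterol regulatory element), CCAAT (the NF-Y box) and GGGCGG (the Sp1 box), none of which contains another. Each line gives the 150 bases before the start, 5′ to 3′ on the gene's strand, with the matches in capitals. Mvk lies at chr5:114444119-114444268 on the plus strand, Mvd at chr8:122443423-122443572 on the minus strand and Tm7sf2 at chr19:6067851-6068000 on the minus strand. Dhcr7 has several listed starts, and the window at chr7:143830064-143830213 on the plus strand is shown. The windows of its other listed starts hold 0 NF-Y boxes. Hmgcs1 lies at chr13:119690201-119690350 on the plus strand.
Mvk: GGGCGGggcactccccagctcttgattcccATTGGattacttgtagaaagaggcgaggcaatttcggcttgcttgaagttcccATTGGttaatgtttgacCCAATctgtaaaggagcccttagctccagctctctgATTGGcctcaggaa
Mvd: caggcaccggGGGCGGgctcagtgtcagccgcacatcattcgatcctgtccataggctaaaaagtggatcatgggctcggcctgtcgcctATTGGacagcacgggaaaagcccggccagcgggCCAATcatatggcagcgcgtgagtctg
Tm7sf2: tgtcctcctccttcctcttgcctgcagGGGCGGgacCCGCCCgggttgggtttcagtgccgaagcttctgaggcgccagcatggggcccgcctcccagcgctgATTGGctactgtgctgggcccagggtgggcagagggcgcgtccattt
Dhcr7: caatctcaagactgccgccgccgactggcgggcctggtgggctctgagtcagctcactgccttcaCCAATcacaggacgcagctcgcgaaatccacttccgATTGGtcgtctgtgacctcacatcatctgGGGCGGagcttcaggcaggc
Hmgcs1: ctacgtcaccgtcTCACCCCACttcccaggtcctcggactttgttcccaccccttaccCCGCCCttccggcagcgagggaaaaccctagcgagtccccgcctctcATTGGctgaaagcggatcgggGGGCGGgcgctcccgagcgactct
The Mvk window holds 4 NF-Y boxes and 1 Sp1 box, and the Dhcr7 window shown holds 2 NF-Y boxes and 1 Sp1 box. The windows of Mvk, Mvd, Tm7sf2 and Dhcr7 hold 0 sterol regulatory elements, and that of Hmgcs1 holds 1. The window of Elovl6, a fatty acid gene that also differed in that comparison, holds 0 matches to any of these elements and is not shown.

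Over the whole 300 bases, matches were counted by gene, and a gene counts if any of its listed promoters has a match. An NF-Y box was found for 14 of the 15 sterol arm genes with a promoter (93.3%). It was found for 3 of 4 control genes and for 2 of 4 fatty acid genes, Acly and Fasn. The same box was present for 41.1% of all 27025 genes with a promoter and for 42.9% of the 8984 tested for expression. An Sp1 box was found for 14 of the 15 sterol arm genes, 4 of 4 control genes and 1 of 4 fatty acid genes. That compares with 38.2% of all genes with a promoter and 68.6% of the tested ones. The sterol regulatory element occurred only in Hmgcs1 among the 23, against 1.44% of all genes with a promoter. These are matches of letters, not measured sites, and other forms of the element were not searched. The promoters of Fdps, Fdft1, Sqle, Scd1, Scd2 and Stard4 were not used here.

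Expression was deposited as FPKM (fragments per kilobase of transcript, scaled to the mapped fragments of the library), a value already adjusted for gene length and library size, so levels of different genes can be set side by side. The 8 libraries had 10924 to 11570 genes at or above 1 FPKM and FPKM sums of 431269 to 595547. Their depth relative to BRAF library 0, read from the steps between low values, was 0.674 to 1.464, and no read totals are given, so no counting interval can be stated. Libraries are called by their column number, which starts at 0. Tests used limma on log2(FPKM + 1) over 12084 genes with at least 1 FPKM in at least 2 libraries, and a gene was called at a Benjamini-Hochberg adjusted p under 0.05. All log2 changes below are differences on that scale, with the standard error, and they understate the change of genes near 0. Values after ± beside group means are SD.

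Smad4 checked the SMAD4KO_BRAF label, with 10.7, 8.38 and 7.66 FPKM in the SMAD4KO_BRAF libraries, against 42.5, 47.0 and 42.4 FPKM in the BRAF libraries (log2 change -2.19 ± 0.13, adjusted p = 0.00163). Cdx2 went against its label. It stood at 155.1 and 121.2 FPKM in the libraries labelled CDX2KO_BRAF, against 64.2, 82.6 and 80.1 FPKM in the BRAF libraries, and was higher there (log2 change 0.86 ± 0.18, adjusted p = 0.0213). That call was lost without either CDX2KO_BRAF library, without BRAF library 0 and without BRAF library 2 (adjusted p of 0.05003 to 0.146). A gene's total FPKM does not show whether a floxed exon was lost, so the deletion was not checked by this value, and "the libraries labelled CDX2KO_BRAF" is meant wherever that group is named. Summed FPKM of 4 Y-linked genes was 76.9 in SMAD4KO_BRAF library 0 and 73.7 in BRAF library 0, and at most 0.064 in the other 6 libraries. The sexes were therefore mixed in the SMAD4KO_BRAF and BRAF groups, so each of these groups holds more than 1 mouse. Both CDX2KO_BRAF libraries had female values, which do not show whether they come from separate mice. The intestinal epithelium markers Krt8, Epcam and Cldn7 led their list, whose sum was 3787 to 5458 FPKM in SMAD4KO_BRAF, 4839 to 4929 in CDX2KO_BRAF and 5069 to 6961 in BRAF libraries. Its members did not move as one in CDX2KO_BRAF, where 3 of 10 fell against BRAF, the differentiation keratin Krt20 (-2.28 ± 0.47, adjusted p = 0.0219), the nuclear receptor Hnf4a (-0.91 ± 0.15, adjusted p = 0.00915) and the brush border protein Vil1 (-0.92 ± 0.25, adjusted p = 0.0494), and 1 rose, Cdx2 itself. None was called in SMAD4KO_BRAF, where 2 were lower and 0 higher at an unadjusted limma p under 0.05.

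Among the 29 genes, 28 had values above 0 and all 28 passed the filter. By mean FPKM over the 8 libraries, the highest were Scd2 (169.3), Msmo1 (153.0), Sqle (99.4), Srebf2 (78.1) and Cyp51 (76.5). The lowest of the 28 were Scd1 (11.9), Idi1 (3.68) and Acaca (2.96). Neighbours in this order, such as Fdps at 43.4 and Mvd at 43.1, overlapped over the libraries. Hmgcs1, which makes HMG-CoA, the compound reduced to mevalonate, was listed at 0 in every library. An exact 0 for a gene that dividing cells generally use can be a failed estimate, so no level is read from it and it was not tested.

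**Figure D1:**
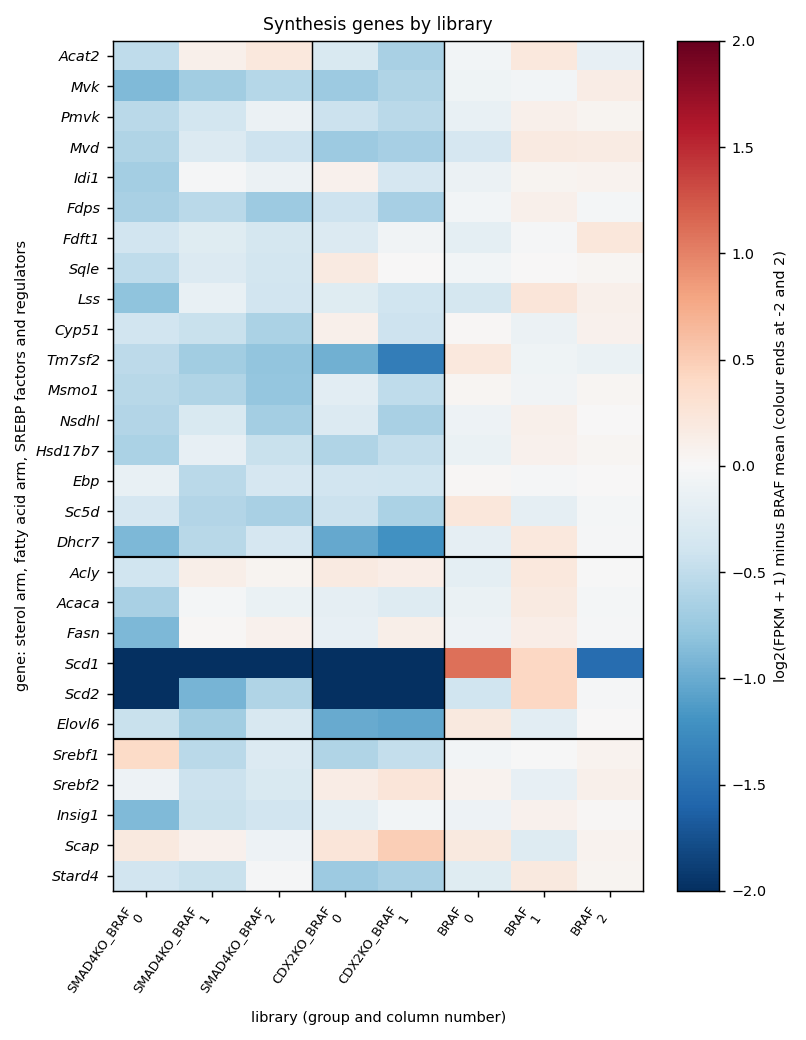
Log2(FPKM + 1) of the 28 genes with values (rows) in each of the 8 libraries (columns), minus the gene's BRAF mean; black lines separate the sterol arm, the fatty acid arm and the control genes, and colours end at -2 and 2. Most sterol genes are blue in the SMAD4KO_BRAF and CDX2KO_BRAF columns, Scd1 and Scd2 reach the end of the scale, and Scd1 also varies among the BRAF libraries.

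In SMAD4KO_BRAF crypts, 27 of the 28 genes had a log2 change below 0 against BRAF crypts (51.8% of all tested genes) and 1, Scap, had one above 0 (48.2%), but none passed the adjusted threshold in either direction. Genes called over the whole table were also few there, at 0.0497% lower and 0.0248% higher. At an unadjusted limma p under 0.05, 18 of the 28 were lower and 0 higher, against 9.05% and 6.07% of all tested genes. With library weights in the fit, 11 of the 28 were called lower and 655 genes in all, so the count depends on that setting. In 16 of the 28 every SMAD4KO_BRAF library lay below every BRAF library (10.3% of all tested genes), and in 0 every library lay above (8.99%). In CDX2KO_BRAF crypts, 9 of the 28 fell against BRAF crypts (7.21% of all genes fell) and 0 rose (6.89% rose). At an unadjusted limma p under 0.05, 15 were lower and 0 higher, against 14.2% and 14.6% of all genes. Of the 28, 24 had a log2 change below 0 (47.4% of all genes) and 4 above 0 (52.5%). The 2 CDX2KO_BRAF libraries lay below all BRAF libraries in 18 genes (22.7% of all genes) and above them in 2, Srebf2 and Scap (25.7%). Both comparisons share the 3 BRAF libraries, so they are not independent of each other. Because p was adjusted within each comparison, a similar change can be called in one and not in the other, as for Mvk and Fdps below. A call in CDX2KO_BRAF alone therefore does not show a difference from SMAD4KO_BRAF.

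**Figure D2:**
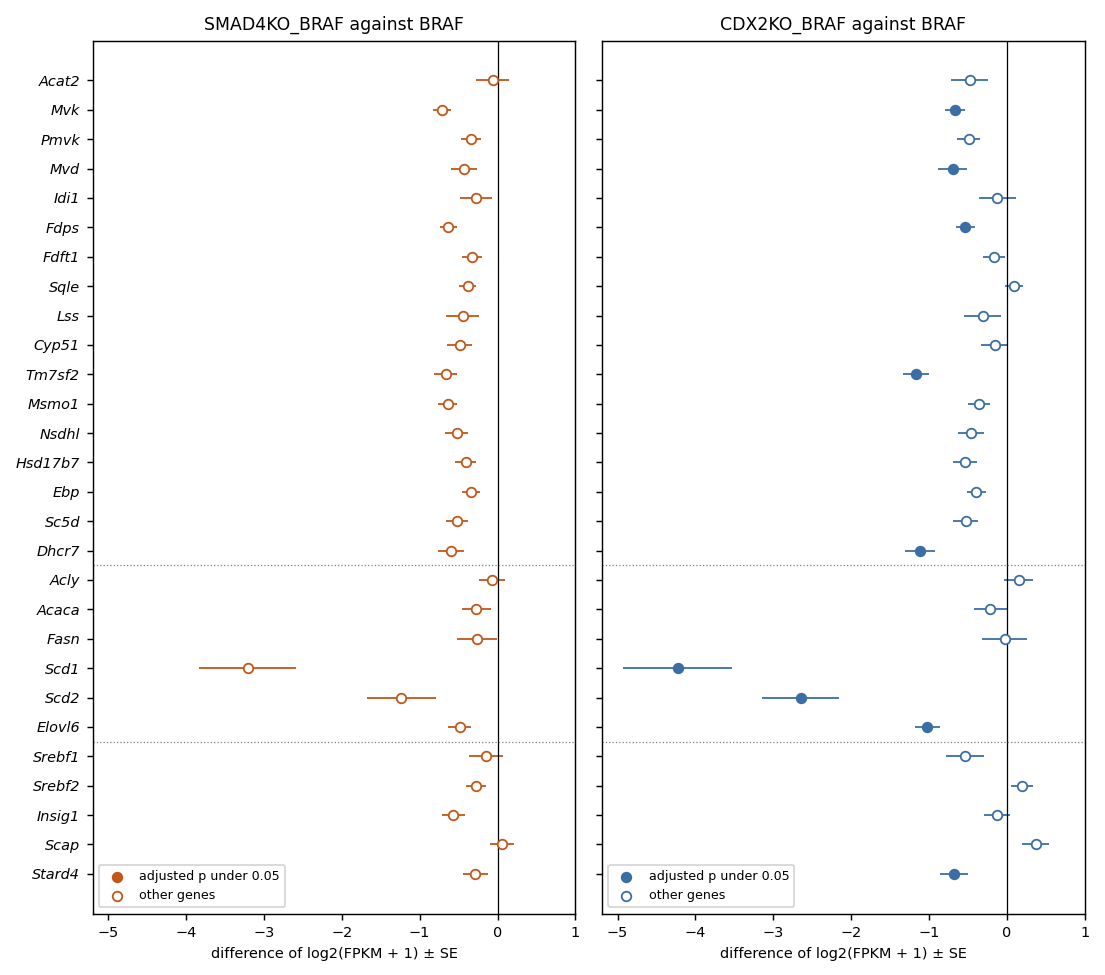
Difference of log2(FPKM + 1) from BRAF (horizontal axis, bars are SE) for each of the 28 genes, in SMAD4KO_BRAF (left panel) and CDX2KO_BRAF (right panel); filled points have an adjusted p under 0.05. All SMAD4KO_BRAF points are open and all but Scap lie below 0, and 9 CDX2KO_BRAF points are filled, from Fdps at -0.54 to Scd1 at -4.23.

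The first part of the sterol arm leads from acetyl-CoA to farnesyl diphosphate. Mvk, mevalonate kinase, had 23.1, 26.4 and 28.9 FPKM in SMAD4KO_BRAF, 25.9 and 28.1 in CDX2KO_BRAF, and 40.7, 41.9 and 48.1 in BRAF libraries. All 5 libraries of the 2 knockout-labelled groups lay below all 3 BRAF libraries. The mean was 60.0% of the BRAF mean in SMAD4KO_BRAF (log2 change -0.72 ± 0.12, adjusted p = 0.138) and 62.0% in CDX2KO_BRAF (-0.67 ± 0.13, adjusted p = 0.0173). Mvd, which decarboxylates mevalonate diphosphate, had 34.5, 43.7 and 39.8 FPKM in SMAD4KO_BRAF, 31.6 and 33.3 in CDX2KO_BRAF, and 41.8, 60.1 and 59.7 in BRAF libraries. Its lowest BRAF library overlapped the SMAD4KO_BRAF range and lay above both CDX2KO_BRAF libraries. The log2 change was -0.43 ± 0.16 in SMAD4KO_BRAF (adjusted p = 0.301) and -0.70 ± 0.18 in CDX2KO_BRAF (adjusted p = 0.0469).

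Fdps, farnesyl diphosphate synthase, had 34.9, 37.8 and 33.1 FPKM in SMAD4KO_BRAF, 41.3 and 34.5 in CDX2KO_BRAF, and 53.0, 59.1 and 53.6 in BRAF libraries. The BRAF libraries stood above all others. Its log2 change was -0.63 ± 0.11 in SMAD4KO_BRAF (adjusted p = 0.139) and -0.54 ± 0.12 in CDX2KO_BRAF (adjusted p = 0.0281). Pmvk, the phosphomevalonate kinase between Mvk and Mvd, averaged 36.7 ± 5.59 FPKM in SMAD4KO_BRAF, 32.8 ± 1.80 in CDX2KO_BRAF and 46.6 ± 4.30 in BRAF libraries, and was not called in either (adjusted p = 0.307 and 0.0730). Acat2, the cytosolic thiolase that joins acetyl-CoA units, and Idi1, isopentenyl diphosphate isomerase, overlapped BRAF in SMAD4KO_BRAF libraries. In CDX2KO_BRAF, Acat2 had 22.8 and 17.7 FPKM, below the 27.3, 33.0 and 25.2 FPKM of the BRAF libraries, but was not called (-0.47 ± 0.24, adjusted p = 0.240), and Idi1 overlapped BRAF. Reads from Acat2 share 39.1% of their 50-base words with Acat3, Fdps shares 26.2% and Idi1 25.3% with other annotated genes or pseudogenes, so their levels are uncertain.

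The second part of the sterol arm leads from squalene to cholesterol. Sqle, squalene epoxidase and a rate-limiting step, had 74.7, 88.0 and 83.1 FPKM in SMAD4KO_BRAF, 121.0 and 107.1 in CDX2KO_BRAF, and 103.4, 107.9 and 109.7 in BRAF libraries. The SMAD4KO_BRAF libraries were the lowest 3 of the 8, and the CDX2KO_BRAF and BRAF ranges overlapped. Its log2 change was -0.38 ± 0.11 in SMAD4KO_BRAF (adjusted p = 0.229) and 0.09 ± 0.12 in CDX2KO_BRAF (adjusted p = 0.656). Compared directly, Sqle was higher in CDX2KO_BRAF than in SMAD4KO_BRAF libraries by 0.47 ± 0.12 (adjusted p = 0.0452). It was the only one of the 28 called in that comparison (1 higher and 0 lower, against 6.6% and 5.01% of all genes), and the call was lost when any 1 of the 8 libraries was left out (adjusted p of 0.0584 to 0.255).

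Tm7sf2, a sterol C14 reductase acting after lanosterol demethylation, had 17.5, 15.4 and 14.3 FPKM in SMAD4KO_BRAF, 12.6 and 9.22 in CDX2KO_BRAF, and 29.6, 24.1 and 23.3 in BRAF libraries. The 3 groups did not overlap, with CDX2KO_BRAF lowest. The log2 change was -0.67 ± 0.15 in SMAD4KO_BRAF (adjusted p = 0.181) and -1.17 ± 0.17 in CDX2KO_BRAF (adjusted p = 0.00587), and the mean in CDX2KO_BRAF was 42.6% of the BRAF mean. Dhcr7, which reduces 7-dehydrocholesterol in the last step of one route to cholesterol, had 21.4, 27.5 and 32.2 FPKM in SMAD4KO_BRAF, 19.7 and 17.0 in CDX2KO_BRAF, and 35.9, 47.4 and 40.2 in BRAF libraries. Its groups did not overlap either, and CDX2KO_BRAF was again lowest. The log2 change was -0.60 ± 0.17 in SMAD4KO_BRAF (adjusted p = 0.238) and -1.12 ± 0.19 in CDX2KO_BRAF (adjusted p = 0.0111). Tm7sf2 shares 9.87% of its 50-base words with Vps51, and the library kit is not stated to keep strand. Directly compared, CDX2KO_BRAF and SMAD4KO_BRAF libraries differed by -0.50 ± 0.17 for Tm7sf2 (adjusted p = 0.102) and by -0.52 ± 0.19 for Dhcr7 (adjusted p = 0.125), so neither difference was called.

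Hsd17b7, a ketoreductase of C4 demethylation, had 15.4, 21.9 and 17.9 FPKM in SMAD4KO_BRAF, 15.8 and 17.4 in CDX2KO_BRAF, and 22.4, 26.3 and 25.3 in BRAF libraries. All BRAF libraries stood highest, but the change was not called in SMAD4KO_BRAF (-0.41 ± 0.14, adjusted p = 0.279) or in CDX2KO_BRAF (-0.54 ± 0.16, adjusted p = 0.0634). Msmo1, the C4 methyl oxidase and the most abundant sterol enzyme, averaged 120.9 ± 9.60 FPKM in SMAD4KO_BRAF, 147.9 ± 22.0 in CDX2KO_BRAF and 188.5 ± 8.24 in BRAF libraries. Its log2 change was -0.64 ± 0.12 in SMAD4KO_BRAF (adjusted p = 0.179) and -0.35 ± 0.14 in CDX2KO_BRAF (adjusted p = 0.144). The remaining enzymes of this stretch are Fdft1 (squalene synthase), Lss (lanosterol synthase), Cyp51 (lanosterol demethylase), Nsdhl (C4 decarboxylation), Ebp (the Δ8-Δ7 isomerase) and Sc5d (C5 desaturase). Their group means were 69.0 to 79.0% of the BRAF mean in SMAD4KO_BRAF and 68.6 to 90.9% in CDX2KO_BRAF, and none was called. Fdft1 shares 26.5% of its 50-base words with other genes, chiefly Ctsb.

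**Figure D3:**
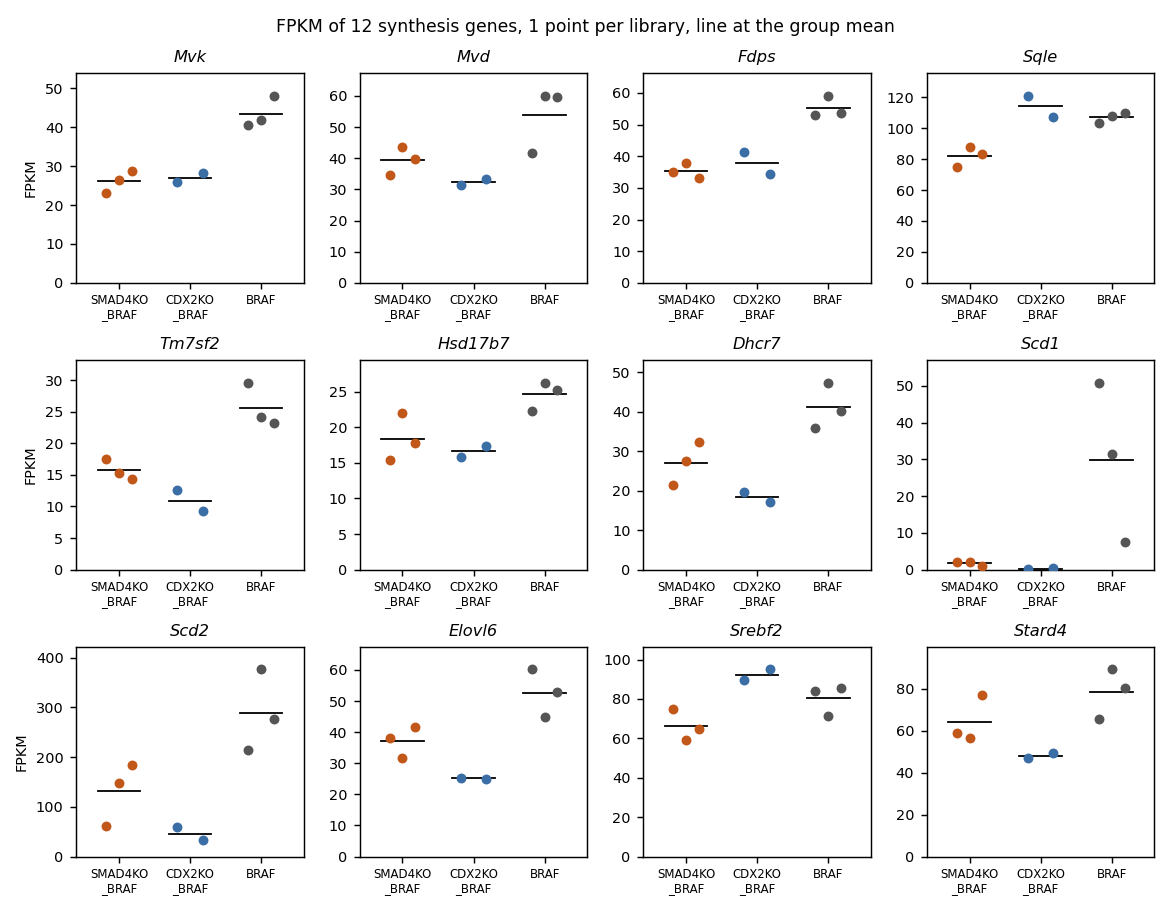
FPKM (vertical axes, each from 0) of the 12 genes with the smallest adjusted p in any comparison, in SMAD4KO_BRAF, CDX2KO_BRAF and BRAF libraries; each point is 1 library and each line the group mean. Mvk and Fdps are low in both knockout-labelled groups, Tm7sf2, Dhcr7 and Elovl6 are lowest in CDX2KO_BRAF, and the SMAD4KO_BRAF points of Sqle lie below all others.

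In the fatty acid arm, 3 of 6 genes fell in CDX2KO_BRAF (7.21% of all genes fell). None was called in SMAD4KO_BRAF, where 3 were lower and 0 higher at an unadjusted limma p under 0.05 (9.05% and 6.07% of all genes). The 3 that fell, Scd1, Scd2 and Elovl6, desaturate or elongate fatty acids, and the other 3 act in the making of palmitate. Scd1, a stearoyl-CoA desaturase, had 2.15, 1.98 and 0.93 FPKM in SMAD4KO_BRAF, 0.09 and 0.54 in CDX2KO_BRAF, and 50.9, 31.4 and 7.48 in BRAF libraries. Every BRAF library stood above every other library, although the BRAF libraries themselves spread widely (29.9 ± 21.8). The log2 change was -3.21 ± 0.62 in SMAD4KO_BRAF (adjusted p = 0.179) and -4.23 ± 0.70 in CDX2KO_BRAF (adjusted p = 0.00915). Without BRAF library 2, whose Scd1 was the lowest of that group, the SMAD4KO_BRAF change was -3.97 and was called (adjusted p = 0.0180). With a pseudocount of 0.1 in place of 1, the CDX2KO_BRAF change was -6.05, since Scd1 was close to 0 there.

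Scd2, the second main stearoyl-CoA desaturase, had 61.7, 147.9 and 184.8 FPKM in SMAD4KO_BRAF, 59.4 and 32.7 in CDX2KO_BRAF, and 213.7, 376.4 and 277.5 in BRAF libraries. CDX2KO_BRAF libraries were lowest and BRAF libraries highest, with SMAD4KO_BRAF library 0 close to the CDX2KO_BRAF values. The mean was 45.5% of the BRAF mean in SMAD4KO_BRAF (log2 change -1.23 ± 0.44, adjusted p = 0.288) and 15.9% in CDX2KO_BRAF (-2.65 ± 0.50, adjusted p = 0.0148). Without SMAD4KO_BRAF library 0 the change in that group was -0.77 (adjusted p = 0.243). Elovl6, which extends palmitate to stearate, had 38.3, 31.8 and 41.6 FPKM in SMAD4KO_BRAF, 25.4 and 25.0 in CDX2KO_BRAF, and 60.2, 44.9 and 52.8 in BRAF libraries. The 3 groups did not overlap. Its log2 change was -0.49 ± 0.14 in SMAD4KO_BRAF (adjusted p = 0.240) and -1.02 ± 0.16 in CDX2KO_BRAF (adjusted p = 0.00757). Scd1 shares 4.56% and Scd2 3.97% of their 50-base words with other genes, chiefly with other Scd genes.

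Fasn, fatty acid synthase, had 22.4, 43.4 and 45.0 FPKM in SMAD4KO_BRAF, 37.8 and 46.0 in CDX2KO_BRAF, and 39.4, 46.6 and 41.7 in BRAF libraries. SMAD4KO_BRAF library 0 was low and the other 7 overlapped. Acly, which makes cytosolic acetyl-CoA from citrate, averaged 45.7 ± 8.64 FPKM in SMAD4KO_BRAF, 53.1 ± 1.10 in CDX2KO_BRAF and 47.9 ± 6.70 in BRAF libraries. Acaca, the acetyl-CoA carboxylase that makes malonyl-CoA, averaged 2.68 ± 0.79, 2.77 ± 0.15 and 3.38 ± 0.51 FPKM in SMAD4KO_BRAF, CDX2KO_BRAF and BRAF libraries, and shares 30.4% of its 50-base words with other genes. None of these 3 was called, with log2 changes of -0.08 to -0.27 in SMAD4KO_BRAF and -0.21 to 0.15 in CDX2KO_BRAF.

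Among the control genes, the 2 SREBP genes differed in their order of groups. Srebf2 had 74.8, 59.3 and 64.5 FPKM in SMAD4KO_BRAF, 89.4 and 95.0 in CDX2KO_BRAF, and 84.1, 71.5 and 85.8 in BRAF libraries. CDX2KO_BRAF libraries were highest, and SMAD4KO_BRAF and BRAF overlapped. The log2 change was -0.28 ± 0.12 in SMAD4KO_BRAF (adjusted p = 0.347) and 0.20 ± 0.14 in CDX2KO_BRAF (adjusted p = 0.392), and CDX2KO_BRAF differed from SMAD4KO_BRAF by 0.48 ± 0.14 (adjusted p = 0.0690). Srebf1 had 58.6, 30.6 and 36.9 FPKM in SMAD4KO_BRAF, 29.2 and 32.0 in CDX2KO_BRAF, and 43.1, 44.6 and 47.1 in BRAF libraries. SMAD4KO_BRAF library 0 was the highest of all and the other 4 lay below the BRAF range, with log2 changes of -0.15 ± 0.22 in SMAD4KO_BRAF (adjusted p = 0.763) and -0.54 ± 0.25 in CDX2KO_BRAF (adjusted p = 0.198). The FPKM covers all Srebf1 transcripts, so SREBP-1a and SREBP-1c cannot be told apart.

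Stard4, a sterol carrier that moves cholesterol between membranes, had 59.1, 56.6 and 76.8 FPKM in SMAD4KO_BRAF, 46.9 and 49.5 in CDX2KO_BRAF, and 65.4, 89.3 and 80.6 in BRAF libraries. CDX2KO_BRAF libraries were lowest, and SMAD4KO_BRAF overlapped BRAF. It fell in CDX2KO_BRAF (-0.68 ± 0.18, adjusted p = 0.0469) and was not called in SMAD4KO_BRAF (-0.29 ± 0.16, adjusted p = 0.421). Insig1, the sterol-dependent anchor of Scap, had 38.6, 52.4 and 54.6 FPKM in SMAD4KO_BRAF, 62.7 and 68.8 in CDX2KO_BRAF, and 66.7, 75.9 and 73.0 in BRAF libraries. SMAD4KO_BRAF libraries were below all others, with a log2 change of -0.57 ± 0.15 (adjusted p = 0.212), and CDX2KO_BRAF overlapped BRAF (-0.13 ± 0.16, adjusted p = 0.646). Scap averaged 23.6 ± 2.45 FPKM in SMAD4KO_BRAF, 29.5 ± 3.96 in CDX2KO_BRAF and 22.8 ± 3.81 in BRAF libraries, and shares 9.96% of its 50-base words with other genes.

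The calls in the CDX2KO_BRAF comparison rest on 2 libraries. Without CDX2KO_BRAF library 1 none of Mvk, Mvd, Fdps, Tm7sf2, Dhcr7, Scd1, Scd2, Elovl6 and Stard4 was called (adjusted p of 0.0537 to 0.184), and without library 0 Tm7sf2 and Scd2 were. Each of those fits has 1 CDX2KO_BRAF library, which is assumed to vary like the other groups. The log2 changes kept their sign, at -0.96 and -1.38 for Tm7sf2, -2.23 and -3.07 for Scd2 and -4.48 and -3.98 for Scd1 without library 1 and without library 0. Without BRAF library 2, 5 of the 9 were called (Mvk, Mvd, Fdps and Stard4 were not, at adjusted p of 0.0552, 0.126, 0.0704 and 0.120), and without BRAF library 1, 6 were (Mvd, Fdps and Stard4 were not, at 0.108, 0.0702 and 0.105). Without BRAF library 0, a male library, 8 were called (Fdps at 0.0556). Leaving out a SMAD4KO_BRAF library, which enters only the estimate of spread, ended the call of Mvd or Stard4 or both (0.0576 to 0.0749), and all 9 were called when a term for sex was added.

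By library, the median over the 17 tested sterol genes of the log2 difference from the BRAF mean was -0.55, -0.37 and -0.41 in SMAD4KO_BRAF, -0.39 and -0.54 in CDX2KO_BRAF, and -0.09, 0.05 and 0.04 in BRAF libraries. All 5 medians of the SMAD4KO_BRAF and CDX2KO_BRAF libraries lay below those of the BRAF libraries, and the ranges of those 2 groups overlapped. The medians of the 6 fatty acid genes were -0.78, -0.37 and -0.23 in SMAD4KO_BRAF, -0.59 and -0.65 in CDX2KO_BRAF, and -0.12, 0.19 and -0.02 in BRAF libraries. Those of the 5 control genes were -0.10, -0.45 and -0.28 in SMAD4KO_BRAF, -0.191 and -0.062 in CDX2KO_BRAF, and -0.057, -0.01 and 0.06 in BRAF libraries. Here too the SMAD4KO_BRAF and CDX2KO_BRAF medians all lay below the BRAF medians, though by little at -0.062 against -0.057. The ranges of SMAD4KO_BRAF and CDX2KO_BRAF overlapped. Over all 12084 genes the medians stayed between -0.03 and 0.02. BRAF libraries lie near 0 by construction, since the difference is taken from their mean.

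**Figure D4:**
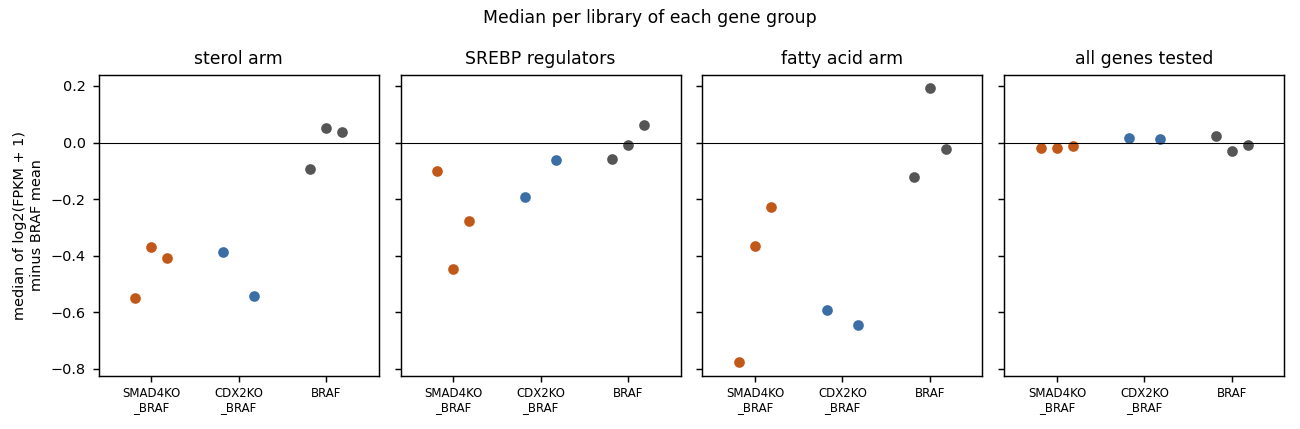
Median over the genes of each group (vertical axis, log2(FPKM + 1) minus the gene's BRAF mean) in SMAD4KO_BRAF, CDX2KO_BRAF and BRAF libraries, 1 point per library, for the sterol arm, the control genes (SREBP regulators), the fatty acid arm and all genes tested. Sterol medians lie at -0.37 to -0.55 in both knockout-labelled groups, and medians over all genes lie near 0.

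In the comparisons of groups, the median log2 change of the sterol arm was -0.45 in SMAD4KO_BRAF and -0.47 in CDX2KO_BRAF against BRAF, beside -0.01 and 0.02 over all genes tested. For the fatty acid arm the medians were -0.38 and -0.62 and for the control genes -0.28 and -0.13. The fatty acid median in CDX2KO_BRAF lies in a gap and is near no single gene. Scd1, Scd2 and Elovl6 changed by -4.23 to -1.02 there, and Acaca, Fasn and Acly by -0.21 to 0.15. Between CDX2KO_BRAF and SMAD4KO_BRAF directly, the medians were 0.05 for the sterol arm, -0.24 for the fatty acid arm and 0.31 for the control genes, against 0.02 over all genes. Of the 28 genes, 15 had a change above 0 in this comparison (52.4% of all genes) and 13 below (47.5%). In 6 genes the CDX2KO_BRAF libraries lay above all SMAD4KO_BRAF libraries (25.1% of all genes) and in 7 they lay below (22.1%).

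Markers of several cell types differed between the libraries beside these values. In bulk RNA, fewer cells of a type and less RNA per cell cannot be told apart. The summed FPKM of 15 mature enterocyte markers, led by Fabp1, Apoa4 and Fabp2, was 5621 to 15974 in SMAD4KO_BRAF, 2378 to 5728 in CDX2KO_BRAF and 11176 to 23301 in BRAF libraries. All 15 had log2 changes below 0 in both comparisons with BRAF, and 12 fell in CDX2KO_BRAF and none in SMAD4KO_BRAF, where 12 were lower at an unadjusted p under 0.05. The sum of 10 gastric epithelium markers, led by Gkn2, Tff2 and Gkn1, was 1.60 to 31.5 in SMAD4KO_BRAF, 2595 to 8576 in CDX2KO_BRAF and 1.10 to 157 in BRAF libraries, and 5 of its 6 tested genes rose in CDX2KO_BRAF. Tff1 and Sox2 of this list were at 0 throughout. The part of either list in the synthesis gene values was not tested.

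Sums of 11 Paneth cell markers, led by Defa24, Lyz1 and Itln1, were 15621 to 26418 FPKM in SMAD4KO_BRAF, 5229 to 6883 in CDX2KO_BRAF and 8969 to 17926 in BRAF libraries. The 10 tested members did not all move with the sum. Against BRAF, 3 had a log2 change above 0 and 7 below in CDX2KO_BRAF, where 3 fell and 0 rose. In SMAD4KO_BRAF 9 were above 0 and 1 below, with 0 called. Sums of 10 crypt base stem cell markers, led by Olfm4, Slc12a2 and Smoc2, overlapped, at 377 to 722, 301 to 537 and 276 to 563 FPKM in SMAD4KO_BRAF, CDX2KO_BRAF and BRAF libraries. Single stem cell genes differed more than the sum. In SMAD4KO_BRAF against BRAF 9 of 10 had a log2 change above 0, and 5 were higher and 0 lower at an unadjusted limma p under 0.05, among them Lgr5 (1.38 ± 0.18, adjusted p = 0.0901) and Smoc2 (1.18 ± 0.26, adjusted p = 0.179), though none was called. In CDX2KO_BRAF against BRAF 5 had a log2 change above 0 and 5 below. There 3 were higher and 3 lower at an unadjusted limma p under 0.05. Of the 10, 1 rose, Tnfrsf19 (0.95 ± 0.22, adjusted p = 0.0315), and 0 fell. Tnfrsf19 was low throughout, at 1.75 and 1.59 FPKM in CDX2KO_BRAF and 0.19, 0.48 and 0.51 in BRAF libraries. In CDX2KO_BRAF against SMAD4KO_BRAF 3 fell, Lgr5, Smoc2 and Msi1. The sums of 15 proliferation genes, led by Top2a, Ccna2 and Birc5, also overlapped, at 438 to 606, 521 to 659 and 396 to 572 FPKM. Against BRAF, 14 of these 15 had a log2 change above 0 in SMAD4KO_BRAF, with 0 called and 0 at an unadjusted limma p under 0.05. In CDX2KO_BRAF 13 were above 0 and 1 rose, Cdk1 (0.64 ± 0.16, adjusted p = 0.0378). Sums of 12 T cell markers were 56.1 to 515, 16.8 to 74.6 and 37.3 to 1075 FPKM, and those of 12 mesenchyme markers were 12.03 to 52.2, 4.63 to 21.4 and 10.8 to 135.0 FPKM, in the same group order. BRAF library 1 gave the high BRAF values, as for Gzma (366.8 FPKM, against 13.7 and 68.8 in the other BRAF libraries). Against BRAF, all 12 T cell and all 8 tested mesenchyme markers had log2 changes below 0 in CDX2KO_BRAF, with 0 called. In SMAD4KO_BRAF 7 of 12 and 7 of 8 did, also with 0 called. Because Scd1 is abundant in fat, 10 adipocyte markers were also summed, at 22.9 to 83.7 FPKM in SMAD4KO_BRAF, 28.2 to 30.9 in CDX2KO_BRAF and 85.4 to 120.0 in BRAF libraries. This sum was carried by Pck1 and Cidec, which enterocytes also express, while Plin1 and Retn were at 0 and Adipoq, Plin4, Lep and Cfd under 1 FPKM in every library. Fabp4 and Lpl reached 1.07 and 1.49 FPKM in BRAF library 1 and stayed under 1 FPKM in every other library. The part of these lists was not tested either.

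Other genes of lipid metabolism were read from 4 related lists. In SMAD4KO_BRAF none of their 44 tested genes was called against BRAF. There 7 were lower and 1 higher at an unadjusted limma p under 0.05, against 9.05% and 6.07% of all genes. Of 17 tested genes of fatty acid supply, elongation and desaturation, 3 fell and 1 rose in CDX2KO_BRAF. Over the 44 tested genes of the 4 lists, 5 fell and 2 rose there, beside 7.21% and 6.89% of all genes, so the lists as a whole lay near the background. Mlxipl, the carbohydrate-response factor ChREBP that drives lipogenic genes, had 51.7, 32.1 and 46.1 FPKM in SMAD4KO_BRAF, 9.67 and 9.46 in CDX2KO_BRAF, and 37.3, 50.0 and 42.8 in BRAF libraries. It fell in CDX2KO_BRAF (-2.06 ± 0.21, adjusted p = 0.00173) and was also lower there than in SMAD4KO_BRAF (-2.04 ± 0.21, adjusted p = 0.00217), whereas SMAD4KO_BRAF and BRAF overlapped. The acyl-CoA synthetases Acsl1 (-0.67 ± 0.17, adjusted p = 0.0456) and Acsl3 (-1.14 ± 0.30, adjusted p = 0.0483) fell in CDX2KO_BRAF, and the elongase Elovl7 rose (0.64 ± 0.17, adjusted p = 0.0446). Mlxipl was called in all 8 fits that left out 1 library (adjusted p of 0.00122 to 0.0258). Acsl3 was called in 2 of them (0.0197 to 0.231) and Acsl1 and Elovl7 in 1 each (0.0289 to 0.246 and 0.0431 to 0.220), and none of these 3 without either CDX2KO_BRAF library.

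Of 7 genes of sterol storage and lysosomal release, the pair of cholesterol-esterifying enzymes moved in opposite directions in CDX2KO_BRAF. Soat1, the broadly expressed enzyme, had 6.37, 7.81 and 8.33 FPKM in SMAD4KO_BRAF, 18.7 and 19.5 in CDX2KO_BRAF, and 10.9, 8.37 and 8.23 in BRAF libraries, and rose against BRAF (0.99 ± 0.16, adjusted p = 0.00821) and was higher than in SMAD4KO_BRAF (1.25 ± 0.16, adjusted p = 0.00459). Soat2, the enzyme of enterocytes and hepatocytes, had 98.4, 46.2 and 76.4 FPKM in SMAD4KO_BRAF, 39.7 and 40.5 in CDX2KO_BRAF, and 127.8, 106.9 and 92.9 in BRAF libraries, and fell (-1.41 ± 0.30, adjusted p = 0.0227). None of the other 5 was called. Of 11 genes of non-sterol isoprenoid synthesis, Pdss1, which makes the side chain of coenzyme Q, fell in CDX2KO_BRAF (-0.88 ± 0.19, adjusted p = 0.0241). Of 9 genes of SREBP processing and the LXR sterol receptors, none was called in CDX2KO_BRAF against BRAF, where 3 were higher and 1 lower at an unadjusted limma p under 0.05. Rnf139, an endoplasmic reticulum ubiquitin ligase, was higher in CDX2KO_BRAF than in SMAD4KO_BRAF libraries (0.52 ± 0.10, adjusted p = 0.0223). When 1 library was left out, Soat1 was called against BRAF in 6 of 8 fits, Soat2 in 4, Pdss1 in 5 and Rnf139 against SMAD4KO_BRAF in 4. Each of these calls was lost without CDX2KO_BRAF library 1, at adjusted p of 0.0743 for Soat1, 0.124 for Soat2, 0.157 for Pdss1 and 0.0890 for Rnf139.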

How the data were processed

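Poly(A)-selection or strand settings are not given in the sources used here beyond the TruSeq RNA v2 kit and single-end reads of 50 bases, per the labels' protocols. The deposited table holds FPKM per gene symbol for each library, made by the authors. Per the submitters' processing notes, TopHat2 2.1.0, Cuffnorm 2.2.1, Cuffdiff 2.2.1 and the mm9 build were used, with no role or order given. Columns are numbered from 0 and sample titles from 1, so columns were matched to groups and not to single samples, and 3 further columns matched no sample and were not used.

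Genes with at least 1 FPKM in at least 2 of 8 libraries (12084 of 23951 symbols) were tested on log2(FPKM + 1) with limma 3.58.1 (R 4.3.3; eBayes with a mean-variance trend), with all 3 groups in 1 fit, two-sided, with Benjamini-Hochberg adjustment over all genes within each of 3 comparisons and a threshold of 0.05. The fit was tested on simulated data. FPKM keep no read totals, so no count model was used. Full values are given for all called synthesis genes and for the 12 synthesis genes with the smallest adjusted p in any comparison. Up to 4 genes of each related list were eligible to be named by adjusted p, and Srebf1, Insig1 and Fasn were given in full after their values were seen. The marker genes Krt20, Hnf4a, Vil1, Lgr5, Smoc2, Tnfrsf19, Msi1 and Cdk1 were likewise named after their values were seen. The 29 genes, the gene and marker lists and the tests were chosen with earlier results of these data known. Shared 50-base words were counted in GENCODE M21 transcripts and promoters were read from RefSeq GRCm38.p6. Alternatives changed the pseudocount, the filter on low values, the scaling, the variance model, the groups and libraries in the fit, library weights and a sex term read from 4 Y-linked genes. Tables were handled with pandas 2.3.3 and numpy 2.4.6 in Python 3.11.15.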

Additional observations from a re-analysis of the deposited data

How the results depend on the processing

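The sign of the median log2 change was kept for the sterol arm, the fatty acid arm and the control genes in both comparisons with BRAF under all 19 alternatives run, and no called gene reversed. Of 1590 values of single synthesis genes under the alternatives, 1499 stayed on their side of the threshold, 54 lost a call and 37 gained one. Sign changes occurred only in values that were not called, in 5 genes in SMAD4KO_BRAF against BRAF, 3 in CDX2KO_BRAF against BRAF and 9 in CDX2KO_BRAF against SMAD4KO_BRAF under at least 1 alternative. The median of all genes stayed within 0.0694 of 0 under every setting. The cause of the changes below was not tested. SMAD4KO_BRAF against BRAF moved most. Library weights called 414 genes higher and 655 lower there, including 11 of the synthesis genes (Mvk, Fdps, Sqle, Cyp51, Tm7sf2, Msmo1, Nsdhl, Ebp, Sc5d, Srebf2 and Insig1), and the sex term called 11 higher and 67 lower, including 1 synthesis gene, Mvk. With no filter 3 genes were called lower. Quantile normalization gave medians of -0.35 for the sterol arm and -0.081 for the control genes in that comparison, and -0.087 for the sterol arm in CDX2KO_BRAF against SMAD4KO_BRAF.

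In CDX2KO_BRAF against BRAF, library weights called 1321 genes higher, and a minimum of 5 FPKM, which leaves out Idi1 and Acaca, gave a fatty acid median of -1.02 (-0.54 against SMAD4KO_BRAF). Mvd, Fdps and Stard4 were the least stable of the 9. Mvd and Stard4 were lost with no filter, with median-ratio rescaling, with quantile normalization and without the variance trend (adjusted p of 0.0512 to 0.112), and all 3 with the 2 groups alone (0.0607 to 0.0858). In CDX2KO_BRAF against SMAD4KO_BRAF, the count of synthesis genes called higher was 0 with a minimum of 5 FPKM, with quantile normalization and with the 2 groups alone, and 2 with library weights and with the sex term (Sqle and Srebf2). The count called lower was 1 with quantile normalization (Elovl6), 3 with library weights (Dhcr7, Scd2 and Elovl6) and 2 with the sex term (Dhcr7 and Scd2). Genes called lower in that comparison numbered 399 with the 2 groups alone, and library weights called 1400 higher and 1047 lower.

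Whether column numbers pair the libraries could not be settled. Deviations from the group mean correlated at -0.109 to 0.241 between same-numbered columns and at -0.332 to 0.312 between others. With 2 or 3 libraries a group, the deviations within a group are tied to each other, so these values can neither show nor exclude a pairing. A replicate block by column number, chosen after seeing the data, kept 6 of the 9 calls in CDX2KO_BRAF against BRAF and gave 481 genes higher there, and 413 higher and 392 lower with 0 synthesis genes higher against SMAD4KO_BRAF.

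Leaving out each library in turn gave 2 to 7 genes higher and 2 to 18 lower in SMAD4KO_BRAF against BRAF, with 0 to 1 synthesis genes lower. In CDX2KO_BRAF against BRAF it gave 167 to 897 higher and 242 to 936 lower, with 0 to 11 synthesis genes lower. In CDX2KO_BRAF against SMAD4KO_BRAF it gave 124 to 813 higher and 110 to 610 lower, with 0 synthesis genes higher and 0 to 1 lower, a sterol arm median of -0.064 to 0.060 and a control gene median of 0.18 to 0.44. With 2 or 3 libraries a group and no read totals, small changes of low genes such as Acaca and Idi1 could not be resolved.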
